A study of Mus musculus with 8 samples.

Results

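The transcripts described here encode respiratory complex I, the NADH dehydrogenase of the inner mitochondrial membrane, together with the factors that assemble it. Genes were chosen by name, as rows whose symbol is Nduf followed by a, b, c, s, v or af and a number, a rule that itself uses no measured value. Of 49452 rows of the table, 45 matched, of which 42 lie on autosomes and were kept. Ndufa1 and Ndufb11 lie on the X chromosome and were set aside, as was a row with the symbol Ndufa13 whose identifier belongs to Yjefn3. All 42 genes passed the filter on low values in both comparisons. They comprise 33 subunits, Ndufa4 and the 8 assembly factors Ndufaf1 to Ndufaf8, and lie on 16 chromosomes.

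RNA-Seq libraries of brown adipose tissue (BAT) were made in 4 groups of 2, all from male mice of strain C57BL/6. In the cold experiment, mice 10 to 12 weeks old stayed at 22 °C or were moved to 4 °C for 20 h and then fasted for 4 h in the cold, which the labels give as 24 h at 4 °C. The study's methods do not state whether the mice at 22 °C were fasted. In the diet experiment, mice 32 weeks old had received control diet (CD) or high-fat diet (HFD) for 28 weeks. The labels call the control food normal chow, whereas the study's text describes a control diet matched in micronutrients. The labels name no transgene or deletion in any of these groups. Cold and diet groups differ in age, so groups were tested only within each experiment, and ranks over all 8 libraries are descriptions. The study took libraries from separate mice, but the labels do not say so, and p-values therefore measure only the spread between these samples.

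Complex I oxidises NADH, hands the electrons through flavin mononucleotide and a chain of iron-sulphur clusters to ubiquinone, and pumps protons as it does so. Its peripheral arm holds the N module, where NADH is oxidised, and the Q module, where ubiquinone is reduced, while the membrane arm forms the proton-pumping part. The hydrophobic core of the membrane arm is encoded by mitochondrial DNA, and all other subunits are nuclear. Brown adipocytes are packed with mitochondria, and complex I feeds the proton gradient that Ucp1 dissipates as heat. Assembly factors join the growing complex and leave it again.

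Because one regulator can bind many such genes, their promoters were searched for 4 motifs known from mitochondrial gene promoters, on both strands, in the RefSeq sequences of build GRCm38.p6 from 250 bases before to 50 bases after each annotated start. Such a sequence was at hand for 37 of the 42 genes and for 17492 coding genes. The letters GCGCATGCG of NRF1 occurred in Ndufa8, Ndufa11, Ndufaf4 and Ndufaf5, against 2.61% of coding genes. The letters AAGATGGCG of YY1 occurred in Ndufa9, Ndufaf8, Ndufc1, Ndufs4, Ndufs6 and Ndufs7, against 2.14% of coding genes. The letters ACCGGAAG of ETS factors occurred in Ndufaf1, Ndufb6, Ndufs3 and Ndufs8, against 3.40%. The letters TCAAGGTCA of ERR occurred in none of the 37, against 0.377%. Ndufs1, Ndufa2, Ndufb9 and Ndufaf6 were among those not searched. Promoters of 3 genes are printed, with the motif in capitals. They were chosen among the core subunits and the 3 largest and 3 smallest log2 fold changes per comparison, and a motif match was required. Of those with a match, Ndufaf4 and Ndufa11 (at 4 °C) and Ndufs6 (under HFD) had the largest absolute log2 fold changes. Genes without a match were passed over, so the printed promoters do not show that the most changed genes carry a motif. In Ndufaf4 and Ndufa11 the NRF1 letters overlap their own reverse complement, so 10 capitals mark both. Ndufaf4 is shown from chr4:24897833-24898132 (plus strand), Ndufa11 from chr17:56717512-56717811 (plus strand) and Ndufs6 from chr13:73328433-73328732 (minus strand). A match describes these letters in this window and is not evidence of binding.
Ndufaf4: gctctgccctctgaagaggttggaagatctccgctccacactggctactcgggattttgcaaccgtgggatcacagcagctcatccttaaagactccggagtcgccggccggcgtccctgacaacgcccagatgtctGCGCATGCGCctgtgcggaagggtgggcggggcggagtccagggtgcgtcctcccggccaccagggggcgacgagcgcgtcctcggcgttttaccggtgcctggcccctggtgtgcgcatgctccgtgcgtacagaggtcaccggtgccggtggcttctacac
Ndufa11: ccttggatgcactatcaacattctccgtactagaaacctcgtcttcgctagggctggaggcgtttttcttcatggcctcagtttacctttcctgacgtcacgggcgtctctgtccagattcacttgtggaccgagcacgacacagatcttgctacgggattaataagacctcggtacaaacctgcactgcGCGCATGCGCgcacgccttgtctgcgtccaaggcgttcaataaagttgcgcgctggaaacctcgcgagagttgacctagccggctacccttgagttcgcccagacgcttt
Ndufs6: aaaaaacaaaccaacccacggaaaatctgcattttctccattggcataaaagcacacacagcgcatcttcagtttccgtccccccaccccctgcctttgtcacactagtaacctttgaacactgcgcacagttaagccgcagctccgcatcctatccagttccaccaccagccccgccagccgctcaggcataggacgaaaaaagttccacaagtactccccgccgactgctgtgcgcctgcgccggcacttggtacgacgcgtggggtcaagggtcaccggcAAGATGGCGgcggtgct

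Values are FPKM, fragment counts normalized by transcript length and sequencing depth, rescaled so that autosomal protein-coding and lncRNA genes had the same sum in each library. Fold changes are on the log2(rescaled FPKM + 1) scale, which understates differences of the lower genes. The rescaling matters because the deposited sums ranged from 179973 to 294538. X-linked genes are listed at 0 in both 22 °C libraries and CD replicate 6, and the satellite transcript Gm10800 exceeded 100 FPKM in 1 library of each group (replicate 4 at 22 °C, 11 at 4 °C, 8 of CD and 2 of HFD). Low values of the table fell on whole fragments, within 0.1 fragment, for 97.8% to 98.7% of those examined. On that scale the least-covered value of any complex I gene, Ndufaf6 in CD replicate 8, rests on about 364 fragments, so counting error is small beside the spread between libraries. Ucp1, the uncoupling protein that defines brown fat, lay between 804 and 5136 rescaled FPKM, and the T-cell marker Cd3e stayed at or below 0.187.

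The subunits were abundant and the assembly factors scarce. Mean levels over the 8 libraries ran from 20.3 to 601 rescaled FPKM among the 33 subunits with a median of 175, and 29 of them reached 100. Assembly factors ran from 5.20 to 23.1 with a median of 11.6, so no assembly factor came near the bulk of the subunits. The lowest subunit was Ndufa11, whose row also carries the copy Gm4943, and the next lowest subunit had a mean of 68.5. Reads may be divided between Ndufa11 or Ndufb4 and their near-identical copies, and both are therefore uncertain.

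Ndufa4, now usually counted with cytochrome c oxidase although it was first described in complex I, was the most abundant. In the cold experiment its level was 869 and 944 rescaled FPKM in controls against 746 and 738 in the cold. In the diet experiment it was 924 and 768 in controls against 530 and 705 on the high-fat diet. Both treated groups lay below their controls without overlap, but neither difference passed the limma test (log2 fold change -0.29, adjusted p = 0.531 and -0.46, adjusted p = 0.674). Ndufb8 and Ndufb9, accessory subunits of the membrane arm, followed with means of 601 and 560. At the other end were Ndufaf7 at 5.20, Ndufaf6 at 7.51 and Ndufaf2 at 10.24, each close enough to the next that their ranges over the 8 libraries overlapped.

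**Figure D1:**
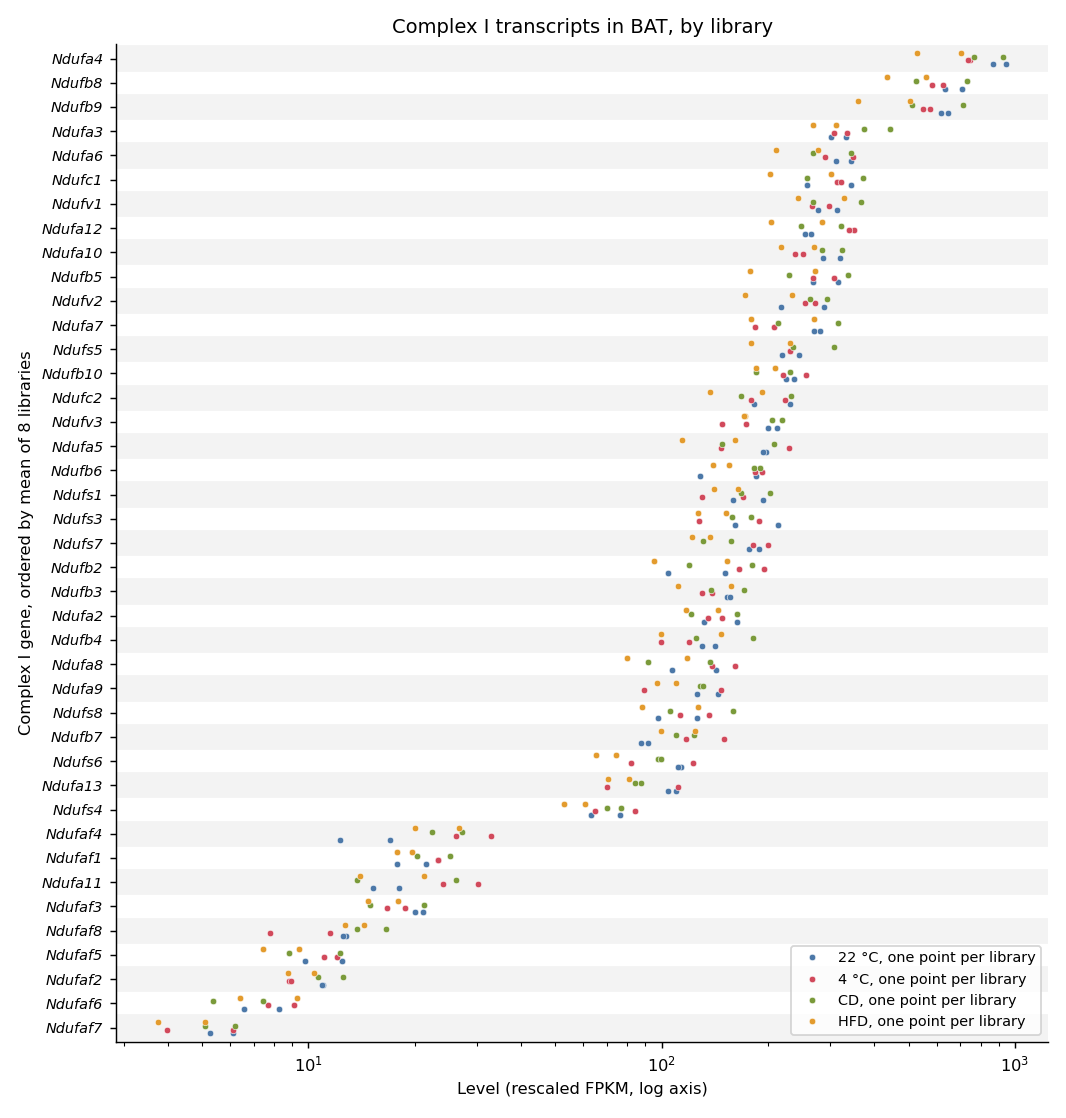
Level of 41 of the 42 complex I genes in each library, as rescaled FPKM on a log axis, with genes ordered by their mean and one point per library coloured by group. Subunits other than Ndufa11 have means of 68.5 or more, and the 8 assembly factors have means of 23.1 or less.

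The larger modules took similar shares of the summed complex I level in all libraries. The 17 membrane-arm genes made up 48.7% to 51.9% of the sum in each library, the 7 nuclear core subunits 17.3% to 19.6% and the 7 accessory genes of the N module 16.2% to 17.1%. Smaller groups varied more, with 8.89% to 11.1% for Ndufa4, 1.22% to 1.61% for the assembly factors and 2.80% to 4.56% for Ndufa5 and Ndufa9, the accessory pair of the Q module. The sum itself differed between libraries. In the cold experiment it was 7854 and 8817 in controls against 7738 and 8253 in the cold. In the diet experiment it was 9387 and 7482 in controls against 5961 and 7557 on the high-fat diet. These sums equal 2.58% to 4.06% of the rescaled total. Cold groups overlapped in this sum, whereas CD replicate 8 and HFD replicate 6 differed by less than either pair of diet replicates.

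Replicates differed from each other across most of the genes at once. The median absolute difference between the replicates of a group was 0.17 on the log2 scale at 22 °C, 0.21 at 4 °C, 0.34 under CD and 0.37 under HFD. Of the 42 genes, 34 were lower in CD replicate 8 than in CD replicate 6, and 33 were higher in HFD replicate 6 than in HFD replicate 2. HFD replicate 2 was the lowest of all 8 libraries for 27 genes, and CD replicate 6 the highest for 19. The spread within each diet group thus exceeds the median difference between the diets given further on. The sample description of CD replicate 6 starts with the same prefix as those of all cold-experiment libraries. The other diet libraries carry a different prefix. What the prefix stands for is not stated, and its part in the diet differences was not tested.

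The first comparison asked how complex I transcripts differ in BAT after exposure to cold. No complex I gene passed the limma test in either direction (adjusted p under 0.05 after Benjamini-Hochberg adjustment), whereas 2.73% of the 17470 autosomal genes tested passed as higher and 4.41% as lower. At an unadjusted p under 0.05 there were 3 of 42 (7.14%), against 31% of all genes. The median log2 fold change was -0.04, beside -0.10 over all genes tested and -0.12 over mRNA genes of at least 1 FPKM. Values above 0 numbered 18 and values below 0 numbered 24. The cold pair exceeded the control pair without overlap for 6 genes (14.3%, against 18.6% of all genes) and lay below it for 11 (26.2%, against 44.4%). Neither share exceeded its background. Both counts changed with 1 library left out. The count of higher genes was 20 without 22 °C replicate 7 and 18 without 4 °C replicate 2 (27.6% and 26.5% of all genes), and that of lower genes was 22 without 22 °C replicate 4 and 21 without 4 °C replicate 11 (55.8% and 56.6% of all genes). Scaling moved the 11 lower genes to 0 as deposited, 1 after median centring and 1 with an autosomal sum over genes of any type (20.6%, 33.3% and 27.9% of all genes). Without the intensity trend, 9 of the 42 genes had an unadjusted p under 0.05 in limma, against 5136 of the 17470 genes tested.

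The balance of directions depended on scaling. With FPKM as deposited, 41 of 42 log2 fold changes were above 0 with a median of 0.38, and 30 genes did not overlap (71.4%, against 37.9% of all genes). Over mRNA genes the median moved as well, from -0.12 when rescaled to 0.22 as deposited. Complex I genes stood 0.09 above the mRNA median when rescaled, 0.16 above it as deposited or after median centring and differed from it by -0.12 after quantile normalization. No direction for complex I as a whole at 4 °C therefore held over these scalings.

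Nuclear core subunits, which carry the flavin and the iron-sulphur clusters, differed little. The median of the 7 was 0.06, and their log2 fold changes ran from -0.26 to 0.16 with adjusted p-values of 0.535 to 0.887. Ndufv1, which binds NADH and flavin mononucleotide, stood at 277 and 314 rescaled FPKM at 22 °C and 267 and 298 at 4 °C. Ndufv2, its iron-sulphur partner in the N module, stood at 217 and 289 at 22 °C and 254 and 272 at 4 °C. Ndufs1, the largest subunit and a carrier of iron-sulphur clusters, stood at 159 and 194 at 22 °C and 130 and 170 at 4 °C. The groups overlapped for all 3 genes of the core N module.

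In the Q module the same held. Ndufs3, a structural core subunit, stood at 161 and 213 at 22 °C and 127 and 188 at 4 °C. Ndufs7 and Ndufs8 carry the last iron-sulphur clusters before ubiquinone. Ndufs7 stood at 176 and 189 at 22 °C and 182 and 200 at 4 °C. Ndufs8 stood at 97.4 and 126 at 22 °C and 113 and 137 at 4 °C. None of these 3 separated the groups. Ndufs8 and Ndufv1 are the closest pair among the 42 genes, 94.8 kb apart on chromosome 19, and their log2 fold changes at 4 °C were 0.16 and -0.07.

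Of the 8 assembly factors, Ndufaf4 differed most. Ndufaf4, which acts with Ndufaf3 in early assembly of the Q module, lies at chromosome 4, 24898083 to 24905001 (GRCm38, plus strand). Its level was 12.3 and 17 rescaled FPKM at 22 °C and 32.8 and 26.2 at 4 °C. The groups did not overlap, the cold pair being higher. The log2 fold change was 0.97 ± 0.22 (SE), a 1.96-fold difference on that scale, with an unadjusted p of 0.00702 and an adjusted p of 0.0633 in limma. Of 18 alternatives with a test, 4 passed the threshold, with adjusted p-values from 0.0154 to 0.331 over those with 2 libraries per group. All 18 gave a value above 0, but for most of them the sign could not change. Fits that change only the test keep 0.97, and leaving out 1 library cannot reverse groups that do not overlap.

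Its partner Ndufaf3 stood at 19.98 and 21.1 at 22 °C and 16.7 and 18.7 at 4 °C, a log2 fold change of -0.21 ± 0.15 (SE) with an adjusted p of 0.38, and with FPKM as deposited the value was 0.19. Ndufaf1, a factor of membrane-arm assembly, stood at 17.8 and 21.5 at 22 °C and 23.2 and 23.3 at 4 °C. Ndufaf2, a paralogue of Ndufa12 that acts late in assembly, stood at 11 and 10.95 at 22 °C and 8.79 and 8.91 at 4 °C. Neither passed the test (adjusted p = 0.36 and 0.215), although the groups did not overlap in either. Ndufaf8 stood at 12.8 and 12.5 at 22 °C and 7.81 and 11.5 at 4 °C, with a log2 fold change of -0.38 ± 0.21 (SE) and an adjusted p of 0.276. Ndufaf5, the arginine hydroxylase of Ndufs7 with which Ndufaf8 works, stood at 9.79 and 12.4 at 22 °C and 12.1 and 11.1 at 4 °C. Ndufaf8 thus did not overlap between the groups and Ndufaf5 did.

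Ndufaf6 stood at 6.56 and 8.25 at 22 °C and 9.10 and 7.69 at 4 °C. Ndufaf7, a methyltransferase that acts in assembly, stood at 5.26 and 6.14 at 22 °C and 3.97 and 6.10 at 4 °C. Both overlapped between the groups. Over the 8 assembly factors the median log2 fold change was -0.06, with 4 values above 0 and 4 below.

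Among accessory subunits, Ndufa11 and Ndufb7 of the membrane arm had the highest values. Ndufa11 (chromosome 17, 56717762 to 56724248) stood at 15.2 and 18.1 rescaled FPKM at 22 °C and 30.1 and 24.1 at 4 °C, a log2 fold change of 0.67 ± 0.18 (SE) with an adjusted p of 0.0896. Ndufb7 (chromosome 8, 83566671 to 83571626) stood at 91.4 and 87.4 at 22 °C and 117 and 150 at 4 °C, a log2 fold change of 0.57 ± 0.21 (SE) with an adjusted p of 0.148. Both lay above their controls in each cold library, and with Ndufaf4 they were the 3 genes with an unadjusted p under 0.05. Ndufa12 and Ndufb2, named here after their values were seen, also did not overlap, with log2 fold changes of 0.41 and 0.51.

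At the low end stood Ndufa7 and Ndufv3, accessory subunits of the peripheral arm. Ndufa7 (chromosome 17, 33824591 to 33838316) stood at 270 and 281 at 22 °C and 208 and 184 at 4 °C, a log2 fold change of -0.49 ± 0.21 (SE) with an adjusted p of 0.191. Ndufv3 stood at 200 and 212 at 22 °C and 148 and 173 at 4 °C, with -0.36 ± 0.21 (SE) and an adjusted p of 0.298. Neither overlapped between the groups. The median over the 9 accessory subunits of the peripheral arm was -0.09, and that over the 17 genes of the membrane arm was -0.01.

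Other mitochondrial lists were read beside complex I at 4 °C, and differences between lists were not tested. Of 42 genes of complexes II to V, 1 passed the test, Atp5g1, which encodes the c-ring subunit of ATP synthase. It stood at 15.9 and 7.502 at 22 °C and 61.6 and 40.1 at 4 °C and rose by 2.08 ± 0.40 (SE) on the log2 scale (adjusted p = 0.0499). The median of that list was 0.04, with 25 of 42 values above 0, 10 genes higher and 6 lower without overlap and 3 at an unadjusted p under 0.05. The median of 75 mitochondrial ribosomal proteins was 0.00, with 39 values above 0 and 21 genes higher and 16 lower without overlap. Of these 75, 13 had an unadjusted p under 0.05 and none passed the threshold. Over all genes tested, 33.2% of values were above 0, and 18.6% were higher and 44.4% lower without overlap. An unadjusted p under 0.05 was found for 31% of all genes. Of 14 regulators of mitochondrial genes, Ppargc1a, the coactivator of mitochondrial biogenesis, was the 1 gene that passed. It stood at 12.5 and 12.7 at 22 °C and 84.4 and 70.4 at 4 °C and rose by 2.52 ± 0.16 (SE, adjusted p = 0.0247). Ucp1 stood at 804 and 1670 at 22 °C and 5073 and 5136 at 4 °C, a log2 fold change of 2.14 with an adjusted p of 0.0722.

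Complex I genes outside the naming rule were read separately. None of the 12 tested passed at 4 °C, with a median of 0.07. Ndufab1, the mitochondrial acyl carrier protein that is also a subunit, stood at 286 and 368 at 22 °C and 317 and 354 at 4 °C. Ndufa4l2, a low-expressed paralogue of Ndufa4, stood at 3.46 and 2.80 at 22 °C and 1.42 and 3.42 at 4 °C. Both overlapped between the groups.

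Skeletal muscle, another tissue rich in complex I, moved with the cold groups. For all 11 muscle markers tested the cold pair exceeded the controls without overlap. Their log2 fold changes had a median of 2.89, and Myl1 passed the test (adjusted p = 0.0497). Their summed level was 686 and 166 rescaled FPKM at 22 °C and 3458 and 1927 at 4 °C. Against shares of 18.6% higher and 44.4% lower without overlap over all genes, the brown adipocyte list had 6 higher and 4 lower of 12, the white adipocyte list 3 higher and 3 lower of 6, the endothelial list 0 higher and 1 lower of 4, the lymphoid list 0 higher and 4 lower of 5 and the macrophage list 0 of 8 in either direction. Beside Ppargc1a, the brown adipocyte genes Dio2, the deiodinase that activates thyroid hormone, and Elovl3, a fatty acid elongase, passed the test and rose by 2.60 and 4.18 on the log2 scale (adjusted p = 0.0262 and 0.0396). Of the white adipocyte genes, Npr3 rose by 1.76, whereas Nnat fell by 2.24 and Lep, which encodes leptin, fell by 2.38 (adjusted p = 0.0348, 0.0351 and 0.0376). The part of these cell types in the values of complex I genes was not tested. In such bulk tissue, fewer cells of a type and less RNA per cell cannot be told apart.

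**Figure D2:**
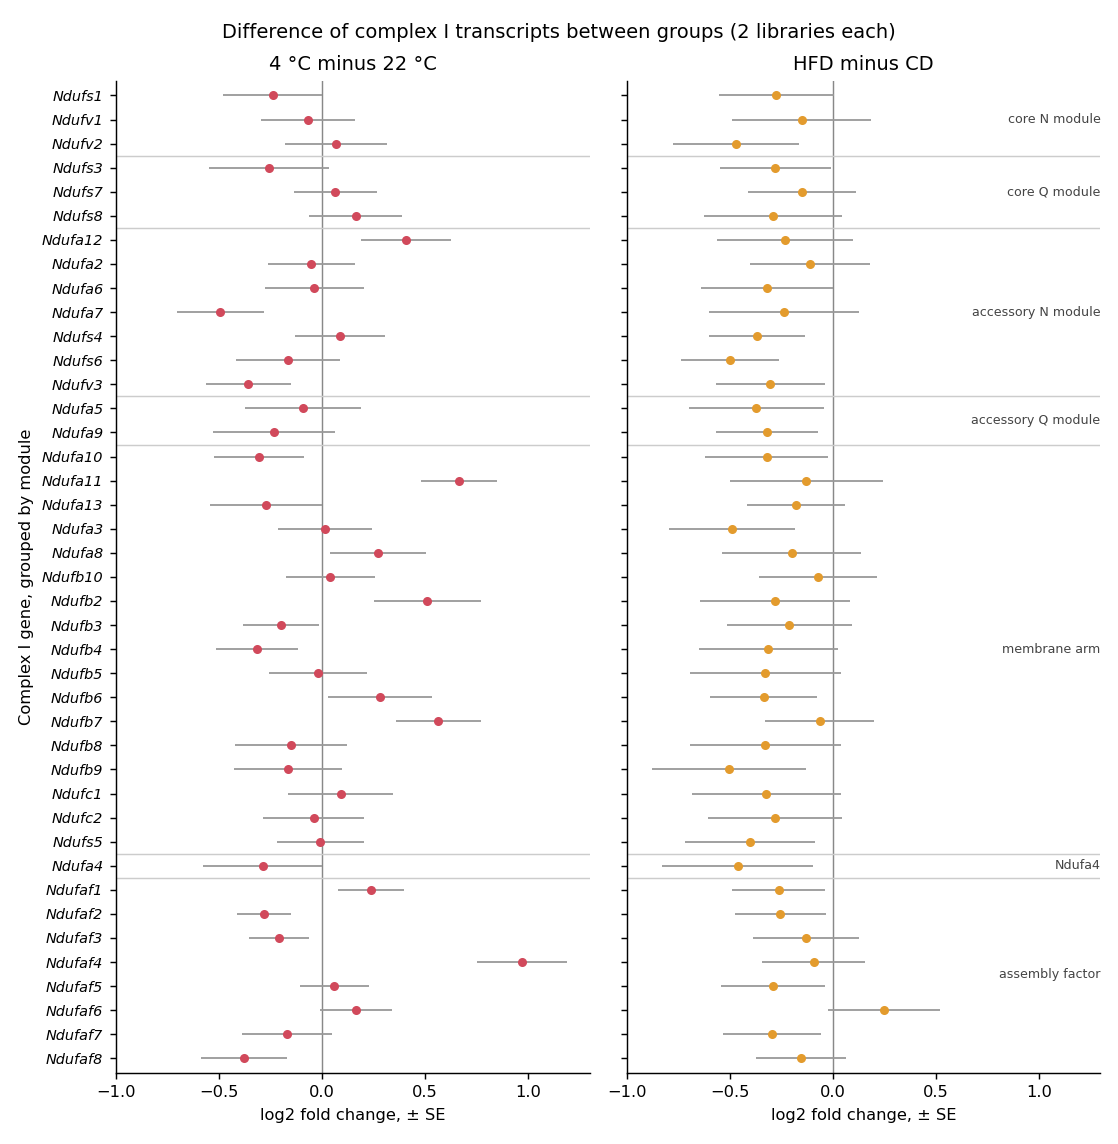
Log2 fold change of 41 of the 42 complex I genes with the limma standard error (bars), for 4 °C against 22 °C and for HFD against CD, with genes grouped by module. At 4 °C values run from -0.49 to 0.97 on both sides of 0, and under HFD all but Ndufaf6 lie below 0.

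The second comparison asked how the same transcripts differ after long feeding with HFD. Of the 42 log2 fold changes, 41 were below 0, whereas 31.9% of the 17535 genes tested were below 0. The median was -0.28, beside 0.09 over all genes tested and 0.16 over mRNA genes. No complex I gene passed the limma test, and neither did any other gene, with 0% higher and 0% lower at an adjusted p under 0.05. Other limma fits called genes elsewhere but again 0 of the 42. With library type (high or low Gm10800) as a covariate, 608 genes passed as higher (3.47%) and 235 as lower (1.34%), and with all 8 libraries in 1 fit 474 passed as higher (2.7%) and 50 as lower (0.285%). At an unadjusted p under 0.05 there were 0 of 42, against 13.3% of all genes. Both HFD libraries lay below both CD libraries for 16 genes (38.1%, against 10.6% of all genes) and above them for 0 (against 33.4%). With 1 library left out, the count of lower genes was 37 without CD replicate 8, 36 without HFD replicate 6, 20 without HFD replicate 2 and 19 without CD replicate 6, where the shares of all genes were 20%, 22%, 15.8% and 30.5%.

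The complex I median lay below the mRNA median under each alternative that was run, but many of these could not change that order. Relative to the mRNA median, the complex I median was -0.44 when rescaled and ranged from -0.61 to -0.22 over 20 alternatives. Without CD replicate 6, the diet library with the different description prefix, it was -0.25, and after quantile normalization it was -0.22. Fits that change only the test kept it at -0.44. As deposited, after median centring and with the median complex I gene as reference it was -0.41, because 1 value per library shifts both medians alike. The count of values below 0 was 30 of 42 without HFD replicate 2, 31 without CD replicate 6 and 32 as deposited. It was 27 with the median complex I gene as reference, which centres these genes near 0 by construction. As deposited the complex I median was -0.11, and only 2 genes did not overlap (4.76%, against 5.8% of all genes). Within the libraries with much Gm10800 the median was -0.27, and within those with little it was -0.29. With that library type as a covariate, 22 of 42 genes had an unadjusted p under 0.05 (52.4%, against 25.7% of all genes), and the lowest adjusted p was 0.0639, for Ndufs6.

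**Figure D3:**
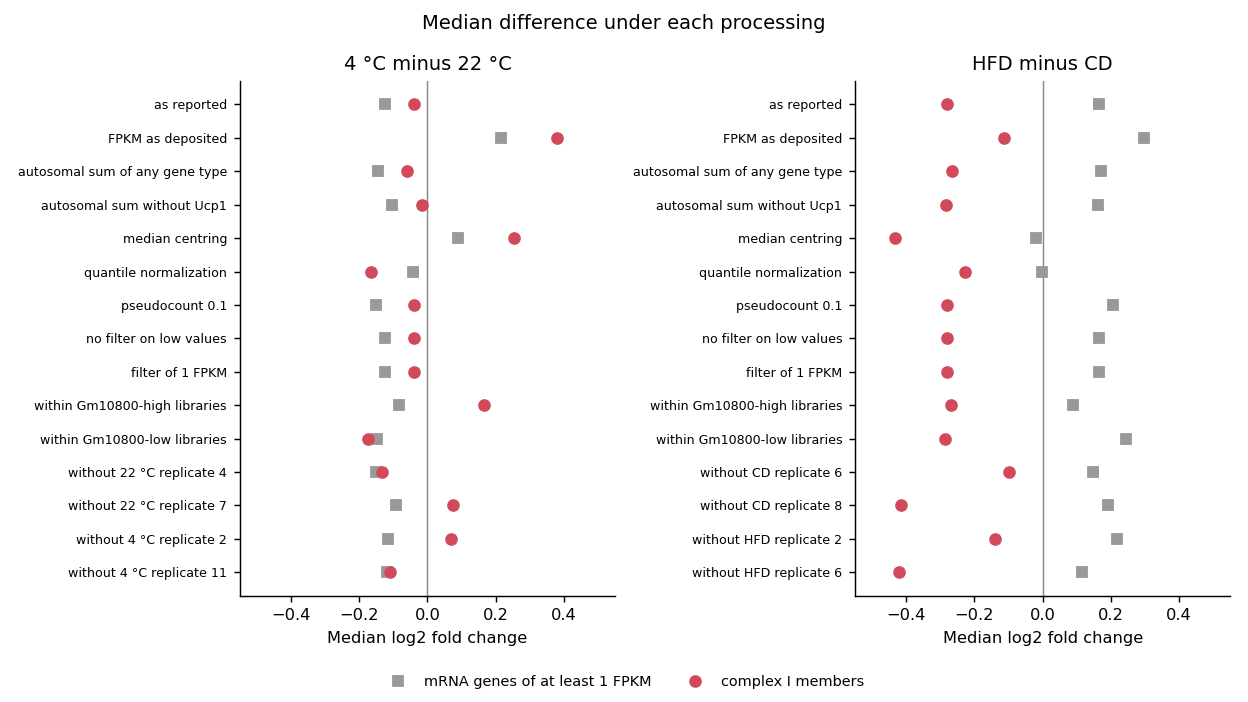
Median log2 fold change of the 42 complex I genes (circles) and of mRNA genes of at least 1 FPKM (squares) under the processings shown, for both comparisons. Alternatives that change only the test, and the median complex I gene as reference, are not drawn. Under HFD the circles lie left of the squares in each row, whereas at 4 °C the circles fall on both sides of 0.

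Core subunits all lay below 0 under HFD. Their median was -0.27, with values from -0.47 to -0.15 and adjusted p-values of 0.602 to 0.916. Ndufv2 stood at 295 and 263 rescaled FPKM under CD and 172 and 234 under HFD. Ndufs1 stood at 203 and 167 under CD and 141 and 165 under HFD. Ndufs3 stood at 179 and 158 under CD and 127 and 152 under HFD. In these 3 the HFD libraries lay below both CD libraries.

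Other core subunits overlapped. Ndufv1 stood at 368 and 269 under CD and 244 and 329 under HFD. Ndufs7 stood at 157 and 131 under CD and 122 and 137 under HFD. Ndufs8 stood at 159 and 106 under CD and 88.2 and 127 under HFD. In all 3 the order from highest to lowest was CD replicate 6, HFD replicate 6, CD replicate 8 and HFD replicate 2.

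The most negative values belonged to accessory subunits. Ndufb9 (chromosome 15, 58933810 to 58939489), a membrane-arm subunit that binds the acyl carrier protein, stood at 711 and 511 under CD and 359 and 504 under HFD. Its log2 fold change was -0.50 ± 0.37 (SE) with an adjusted p of 0.646. Ndufs6 (chromosome 13, 73319874 to 73328542), a zinc-binding subunit of the N module, stood at 97.4 and 99.9 under CD and 74.2 and 65.2 under HFD. Its log2 fold change was -0.50 ± 0.24 (SE), with an unadjusted p of 0.0835 and an adjusted p of 0.454, the lowest of the 42. Ndufa3 (chromosome 7, 3617373 to 3620327), a small membrane-arm subunit, stood at 442 and 374 under CD and 268 and 312 under HFD, with -0.49 ± 0.31 (SE) and an adjusted p of 0.585. All 3 were lower in both HFD libraries, but Ndufb9 by a narrow margin.

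At the other end of the range, Ndufb7 stood at 110 and 124 under CD and 124 and 99.6 under HFD, and Ndufb10 at 231 and 185 under CD and 185 and 210 under HFD. Their log2 fold changes were -0.06 and -0.07. The one value above 0 belonged to Ndufaf6, a factor of early assembly, at 7.45 and 5.36 under CD and 6.39 and 9.29 under HFD, with 0.25 ± 0.27 (SE) and an adjusted p of 0.781. All 3 overlapped between the diets.

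The remaining assembly factors had values from -0.30 to -0.09, and the median of all 8 was -0.20. Ndufaf1 stood at 25.2 and 20.2 under CD and 17.8 and 19.6 under HFD. Ndufaf2 stood at 12.6 and 10.6 under CD and 10.4 and 8.75 under HFD. These were the 2 assembly factors whose diet groups did not overlap. Ndufaf4 stood at 27.2 and 22.4 under CD and 19.98 and 26.7 under HFD, a log2 fold change of -0.09 with an adjusted p of 0.932. Ndufaf3 stood at 21.3 and 15.0 under CD and 14.7 and 17.9 under HFD. Ndufaf5 stood at 12.3 and 8.84 under CD and 7.42 and 9.41 under HFD. Each of these 3 overlapped. Ndufaf7 stood at 5.10 and 6.19 under CD and 5.11 and 3.76 under HFD. Ndufaf8 stood at 13.8 and 16.6 under CD and 14.3 and 12.7 under HFD. Both overlapped as well.

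By module, the median log2 fold change under HFD was -0.32 over the 9 accessory subunits of the peripheral arm and -0.31 over the 17 genes of the membrane arm, close to the -0.27 of the core. All 33 subunits had values below 0. When each library was referred to the median complex I gene in place of the autosomal sum, 15 values lay above 0 and 27 below. That reference centres these genes near 0 by construction, so the balance is not a result. No complex I gene passed the limma test (lowest adjusted p = 0.586), whereas 363 of all genes passed as higher and 45 as lower.

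Complexes II to V, mitochondrial ribosomal proteins and the other complex I genes also had medians below 0, and their differences from complex I were not tested. The median of complexes II to V was -0.31, with 41 of 42 values below 0. Mitochondrial ribosomal proteins had a median of -0.09, with 59 of 75 below 0. The median of the 12 other complex I genes was -0.10, and Ndufab1 stood at 392 and 276 under CD and 217 and 284 under HFD. No gene of these lists passed the test. Complexes II to V summed to 10.8% and 8.23% of the rescaled total under CD and to 6.67% and 8.82% under HFD, so the diets overlapped in this sum as they did in that of complex I.

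**Figure D4:**
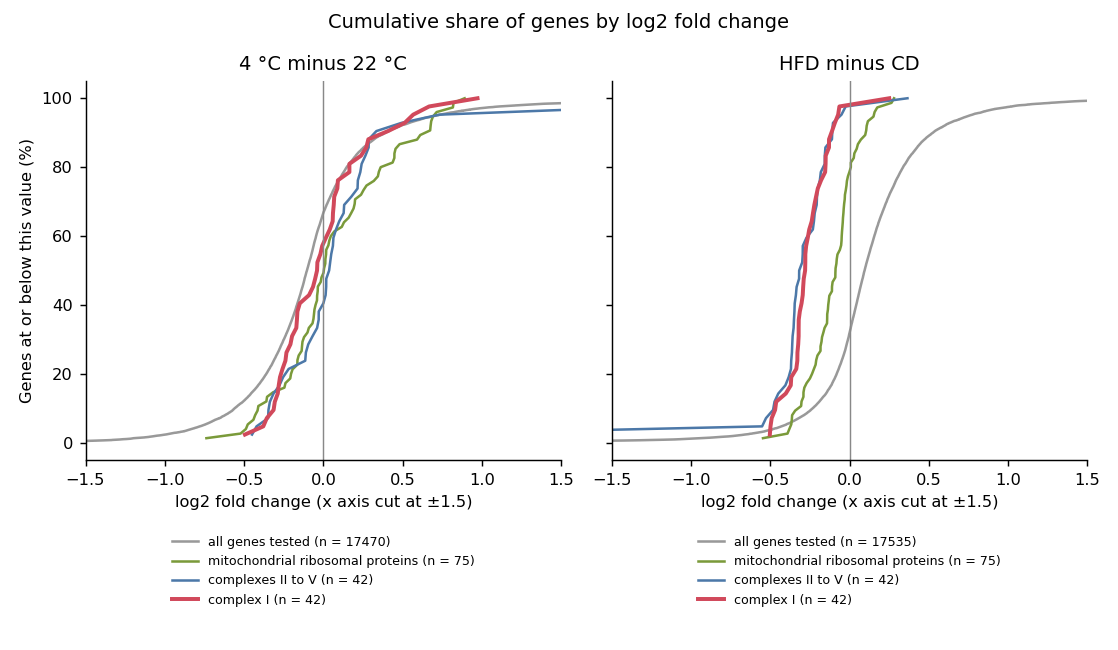
Cumulative percentage of genes (y axis) by log2 fold change (x axis) for complex I, complexes II to V, mitochondrial ribosomal proteins and all genes tested, in both comparisons. Under HFD the curves of complex I (median -0.28) and of complexes II to V (median -0.31) lie to the left of the curve of all genes (median 0.09).

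Some marker lists of other cell types differed between the diets too. The 8 macrophage markers were higher without overlap on the high-fat diet (against 33.4% of all genes). Their median was 1.53 on the log2 scale, with a summed level of 114 and 59.9 rescaled FPKM under CD and 255 and 251 under HFD. White adipocyte markers had a median of 2.82, with Lep at 2.67 and 0.394 under CD and 64.6 and 74.1 under HFD. Skeletal muscle markers lay below 0 in all 11 tested, with a median of -3.81 and a summed level of 564 and 2016 in CD libraries against 220 and 35.7 in HFD libraries. Endothelial markers had a median of 0.55, with 2 of 4 higher without overlap (against 33.4% of all genes). Lymphoid markers had a median of 0.01, with 3 of 6 higher and 3 lower without overlap (against 33.4% and 10.6% of all genes). Brown adipocyte markers had a median of -0.10, with 2 of 12 higher and 4 lower without overlap (against 33.4% and 10.6% of all genes). Of these 12, 6 values were above 0 and 6 below. Dio2 and Plin1 were the 2 higher without overlap, with log2 fold changes of 0.72 and 0.28 (limma, adjusted p = 0.463 and 0.781). Among those below 0, Elovl3 stood at 214 and 152 under CD and 18.9 and 15.8 under HFD. Its log2 fold change was -3.31 (limma, unadjusted p = 3.01e-05, adjusted p = 0.104). Cidea, a lipid droplet protein, had a log2 fold change of -1.24 (adjusted p = 0.242). No marker of these lists passed the limma test. In each of the 4 groups the library with the higher muscle sum had the lower complex I sum, as in CD replicate 8 (7482 against 9387 in replicate 6) and HFD replicate 2 (5961 against 7557 in replicate 6). Between the diets, muscle markers and the complex I median were both lower under HFD. The part of these cell types in the complex I values was not tested.

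**Figure D5:**
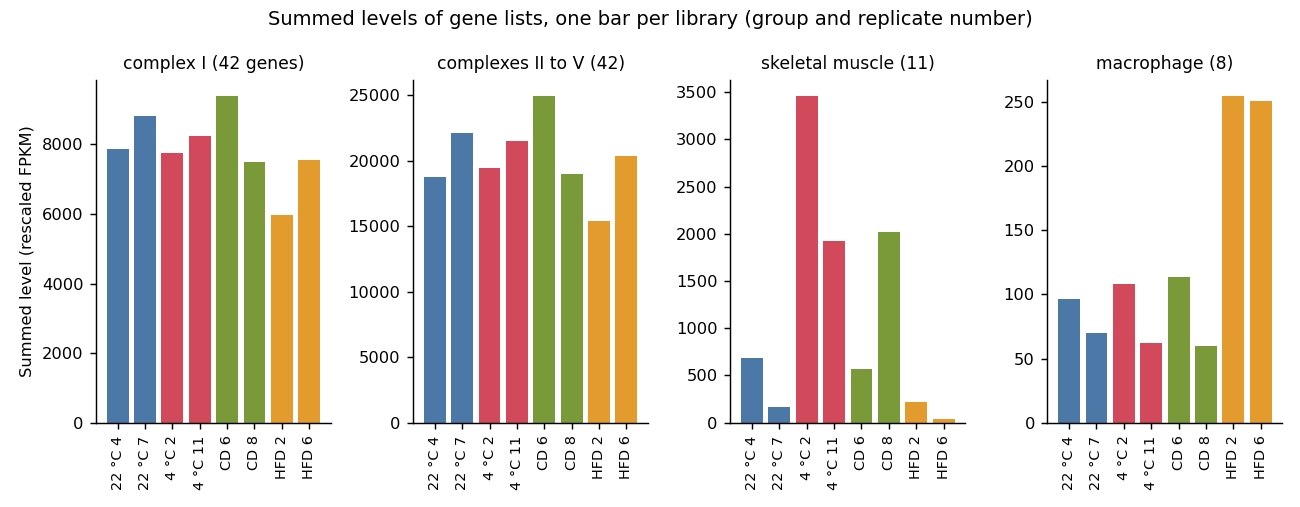
Summed rescaled FPKM of complex I, complexes II to V, skeletal muscle markers and macrophage markers, with one bar per library named by group and replicate number. Complex I runs from 5961 (HFD replicate 2) to 9387 (CD replicate 6), muscle markers from 35.7 to 3458, and macrophage markers are highest in both HFD libraries.

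For 11 of the 42 genes the annotated span overlaps another protein-coding gene, among them Ndufs1 with Eef1b2, Ndufs3 with Kbtbd4, Ndufa3 with Tfpt and Ndufaf3 with Impdh2. Library preparation kept the strand, but whether strand entered the FPKM is not given in the sources used here. Values of these genes may therefore hold reads of their neighbours.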

How the data were processed

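The authors deposited a table of FPKM per gene for 8 BAT libraries, made from rRNA-depleted, directional paired-end libraries. The study's methods give QuickNGS 1.2.7, Ensembl 87, GRCm38, Tophat2 2.0.10 and Cufflinks 2.1.1, whereas the submitters' processing notes list Cufflinks 2.2.1. The table holds no read counts, and 0 columns of per-sample values were left unused. FPKM were rescaled to an equal autosomal sum of protein-coding and lncRNA genes, because X-linked and mitochondrial rows are listed at 0 in 3 libraries.

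Each treated group was compared with its own control (2 libraries against 2, two-sided) by limma 3.58.1 in R 4.3.3 on log2(rescaled FPKM + 1) with an intensity trend. Genes with at least 0.1 FPKM in 2 or more of the 4 libraries were tested, and p-values were adjusted by Benjamini-Hochberg over all of them, with 0.05 as threshold. The study tested counts, which are not used here. Scripts were tested on simulated data.

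Named were genes past the threshold, the core subunits, the 3 largest and 3 smallest differences per comparison, the 3 highest and 3 lowest levels, and all assembly factors. Of other lists, genes past the threshold and Ndufab1, Ndufa4l2, Ucp1 and Ppargc1a were named. Cd3e and, under HFD, Lep, Elovl3, Cidea, Dio2 and Plin1 were added after their values were seen. Values of 1 complex I gene enter the counts, sums and medians but are not reported here. Members and lists were chosen with earlier results of these data known. Gene types came from GENCODE M21. Alternatives covered scaling, pseudocount, filters, trend, library type, all 8 libraries in 1 fit and each library left out.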

Additional observations from a re-analysis of the deposited data

Results flagged for a closer look

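Complex I subunits outside the autosomes were not used in the comparisons and were picked out because they are above 0 in the cold libraries and listed at 0 in both 22 °C libraries and in CD replicate 6. Whole chromosomes are listed at 0 in those 3 libraries, so no fold is given, and the cause was not tested. Of the X-linked subunits, Ndufb11 stood at 207.4 and 187.3 rescaled FPKM in the 2 cold libraries (replicates 2 and 11) and Ndufa1 at 152.8 and 287.3. In the libraries where they are listed, both thus lie in the range of the autosomal subunits.

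Of the subunits encoded by mitochondrial DNA, given as deposited FPKM for cold replicates 2 and 11, mt-Nd1 stood at 9870 and 14220, mt-Nd2 at 1874 and 5112 and mt-Nd3 at 262.6 and 108.8. Replicate 11 was the higher for mt-Nd1 and mt-Nd2 and the lower for mt-Nd3. The values of mt-Nd4l were 5.114 and 13.79, those of mt-Nd4 876.1 and 1608, those of mt-Nd5 879.2 and 1640 and those of mt-Nd6 551.6 and 1129. Replicate 11 was the higher for these 4.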

How the results depend on the processing

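At 4 °C, 1 complex I gene, Ndufaf4, passed the threshold after median centring (log2 fold change 1.25), with library type as a covariate (0.97), and in the 2 alternatives chosen after seeing the data, with the median complex I gene as reference (1.05) and with all 8 libraries and library type in 1 fit (0.97). The median log2 fold change of complex I genes at 4 °C was 0.38 as deposited and 0.25 after median centring. It was 0.17 within the Gm10800-rich libraries (30 values above 0, 12 below) and -0.17 within the Gm10800-poor ones (8 above, 34 below). Both of these medians rest on 1 library per group. The count of genes higher without overlap was 30 as deposited and 26 after median centring (27.7% of all genes). The count of genes lower without overlap at 4 °C was 0 as deposited, 1 after median centring and 1 with the autosomal sum of any gene type, which gave 1 higher gene under HFD. Counts at an unadjusted limma p under 0.05 follow, with those over all genes in brackets. At 4 °C, of 17470 genes, there were 6 as deposited (4278), 6 after median centring (4495) and 1 with the sum of any gene type (2423). There were 9 without the intensity trend (5136) and 5 with all 8 libraries and library type in 1 fit (5470). Under HFD, of 17535 genes, there were 2 without the trend (2382) and 22 with library type as a covariate (4510). With all 8 libraries and library type there was 1 (4124). Without a filter, of 45146 genes, there were 5 at 4 °C (5983) and 1 under HFD (2671). Ndufaf3 turned to 0.19 at 4 °C as deposited. Under HFD the count of genes lower without overlap was 2 as deposited. Leaving out 1 library at a time gave medians from -0.13 to 0.07 at 4 °C and from -0.42 to -0.10 under HFD. Calls of these fits are not given, because 1 group then holds a single library. With 1 library left out, the counts without overlap ran from 6 to 20 higher and 11 to 22 lower at 4 °C. The shares of all genes were 23.7% to 27.6% higher and 53.1% to 56.6% lower. Under HFD the counts ran from 0 to 2 higher and 19 to 37 lower, against 44.3% to 59.4% higher and 15.8% to 30.5% lower of all genes. With 3 libraries, fewer values have to be ordered for groups not to overlap. With the median complex I gene as reference, the median was 0.06 at 4 °C and -0.046 under HFD, near 0 by construction. There were 16 genes higher without overlap at 4 °C (13.9% of all genes). Under HFD 9 were lower and 5 higher without overlap (3.15% and 31.6% of all genes). The remaining alternatives left both medians below 0 and no complex I gene past the threshold. Of the values of named complex I genes, 445 at 4 °C and 450 under HFD kept their side of the threshold with no change of direction beyond the standard error. No complex I gene had passed in the comparisons above, and under HFD no gene had, so these tallies do not show stability. The cause of the shifts between alternatives was not tested. No paired analysis was possible because 22 °C and 4 °C share no replicate number and CD and HFD share only number 6. Library type, used as a covariate, follows the Gm10800 level of these libraries and not a pairing given by the labels. In a fit with 1 library left out, the lone library is assumed to vary like the other group.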
